A study of Mus musculus with 6 samples.

Results

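Bcl2l11, Phlpp2, Cyld, Tnfaip3, Prkaa1, Stat3, Mapk14, Itch and Rora are 9 mouse genes that have been reported as direct targets of the miR-17-92 microRNA cluster and that act in PI3K-AKT signalling, NF-kB signalling or the control of apoptosis. They were chosen by name as reported targets, with earlier results of these data known, and each symbol was matched to its Ensembl identifier. All 9 were found among the 37620 gene identifiers of the count tables, and all 9 were among the 16432 genes with enough reads to be tested. Their levels were read from RNA sequencing of the hippocampus of 6 C57BL/6 mice aged 13 weeks. The mice were 3 miR17-92 knockouts and 3 wildtypes, and no litter gave more than 1 mouse. The allele, the cells that had lost the cluster and the extent of the deletion: none of this is given in the sources used here. The wildtype mice are described by genotype alone. The series concerns adult hippocampal neurogenesis, anxiety and depression, and the 1 comparison it allows is knockout against wildtype.

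The miR-17-92 cluster is a group of microRNAs cut from 1 host transcript. A microRNA pairs through its seed, a short run near its 5′ end, with matching sites in the 3′ untranslated region (UTR) of a messenger RNA, and such pairing lowers the stability or the translation of the target. Loss of a microRNA is therefore read out in RNA data by asking whether its targets are more abundant. The cluster is best known as a growth-promoting locus in lymphoid tumours, where it represses the pro-apoptotic gene Bcl2l11 and phosphatases that oppose PI3K-AKT signalling. PI3K-AKT signalling carries survival and growth signals, NF-kB is a transcription factor family of inflammation and survival that is switched on through ubiquitin chains, and the BCL2 family decides whether mitochondria release the factors that start apoptosis.

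The 6 mature microRNAs of the main arms are shown because their seeds define every site discussed here. They are RefSeq sequences written 5′ to 3′, and the capitals mark the seed, bases 2 to 8. Their hairpins lie on the plus strand of chromosome 14 in GRCm38.p6, and the first and the last mature sequence span chr14:115043684-115043706 and chr14:115044476-115044496.
miR-17-5p: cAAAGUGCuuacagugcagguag
miR-20a-5p: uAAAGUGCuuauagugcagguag
miR-18a-5p: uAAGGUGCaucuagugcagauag
miR-19a-3p: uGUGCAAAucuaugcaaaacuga
miR-19b-3p: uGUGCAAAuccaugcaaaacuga
miR-92a-3p: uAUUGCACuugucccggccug
The 6 microRNAs carry 4 different seeds. miR-17-5p and miR-20a-5p share 1 seed, miR-19a-3p and miR-19b-3p share another, and miR-18a-5p and miR-92a-3p each have their own. Other microRNAs in RefSeq carry the same seeds from other loci, among them miR-106b-5p, miR-93-5p and miR-20b-5p for the miR-17 seed, miR-18b-5p for the miR-18 seed, and miR-25-3p, miR-32-5p and miR-92b-3p for the miR-92 seed. For the miR-19 seed, miR-19b-3p itself is also annotated from a hairpin outside the cluster, and so is miR-92a-3p for the miR-92 seed.

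All 9 genes held at least 1 match to a seed in their longest annotated 3′ UTR. The sites searched were GCACTTT for the miR-17 family, GCACCTT for miR-18, TTTGCAC for miR-19 and GTGCAAT for miR-92, on the sense strand of the messenger RNA. The share of the 14516 tested genes with an annotated 3′ UTR that held at least 1 such site was 33.4%. Sites for 2 or more families were held by 7 of the 9 genes, against 9.02% of tested genes. The 3′ UTRs of the 9 genes were long, with a median of 3701 bases against 1192 over tested genes, and a longer UTR holds more matches of any kind. Reports of targets often rest on such sites, so the matches check their label and are no result on the knockout.

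For each gene 1 site is shown with the bases before it and 1 base after it, as an example of a sequence with which the cluster could pair. The site was picked by its order in the 3′ UTR, and whether it is used in hippocampus was not tested. The sequences are GENCODE M21 transcripts on GRCm38, written 5′ to 3′ with the 7 bases that match the seed in capitals. A site followed by an A was counted as a match of 8 bases, the form known to repress most effectively. This A stands opposite base 1 of the microRNA, outside the seed, and need not pair with it. Such a site was shown where the gene had 1, and positions count from the first base of the 3′ UTR.
Bcl2l11 miR-17 site at 2123 to 2129: gtctccccgactggaGCACTTTa
Phlpp2 miR-92 site at 2962 to 2968: ctgtggagtatacacGTGCAATa
Cyld miR-17 site at 1474 to 1480: ctgttatttttaaagGCACTTTa
Tnfaip3 miR-19 site at 1708 to 1714: agaaagtttgtgaaaTTTGCACa
Prkaa1 miR-19 site at 125 to 131: ccttttggaatgcagTTTGCACa
Stat3 miR-17 site at 251 to 257: ctttgggcaatctggGCACTTTt
Mapk14 miR-19 site at 1827 to 1833: ttcattgaagacatcTTTGCACa
Itch miR-17 site at 1102 to 1108: tagtaactgatgaatGCACTTTg
Rora miR-19 site at 442 to 448: gagttgcggcgttacTTTGCACa
Stat3 and Itch were the 2 genes whose longest 3′ UTR held no match of 8 bases to any family. The other 7 held at least 1, against 13.3% of tested genes.

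The 9 genes together held 30 sites of 7 bases, 10 each for the miR-17 and miR-19 families and 5 each for miR-18 and miR-92. Rora, which encodes a nuclear receptor of the ROR family, held 10 of these in a 3′ UTR of 9285 bases, with all 4 families present. Only 5 tested genes held 10 or more. The closest grouping of different families was in Rora at bases 680 to 705 of the 3′ UTR, shown because sites of 3 families fall within 22 bases and the miR-19 and miR-18 sites share bases.
Rora, sites of miR-17, then miR-19 and miR-18 run together: aagGCACTTTccgttTTTGCACCTTt
Bcl2l11 held 5 sites of 3 families. Prkaa1 and Itch held 1 site each, the fewest of the 9.

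**Figure D1:**
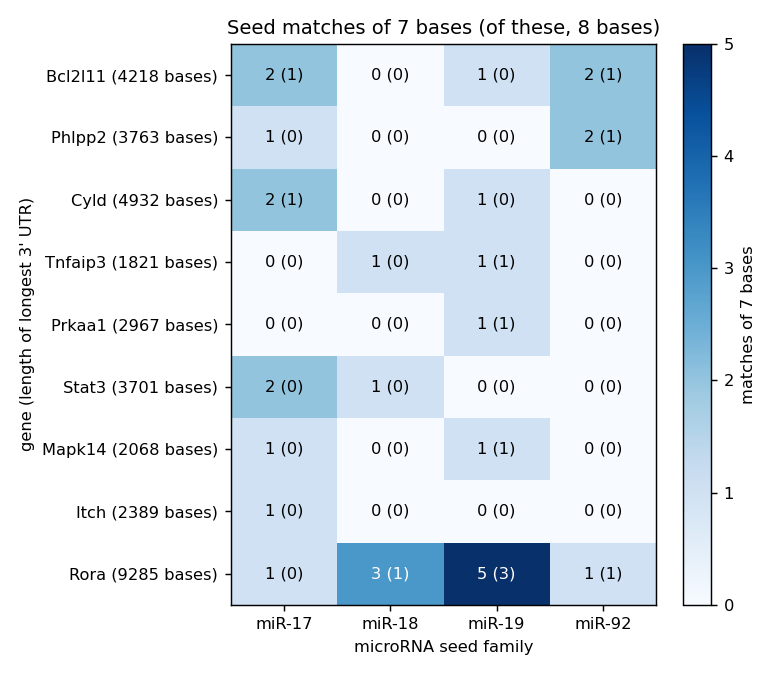
Number of 7-base seed matches in the longest 3′ UTR of each gene (rows, with UTR length in bases) for each seed family (columns), with the number that are 8-base matches in brackets and the colour scale giving the 7-base count. Rora holds 10 of the 30 matches, and the rows of Stat3 and Itch have no 8-base match.

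Reads assigned to genes ran from 26439693 to 57246827 in knockout libraries and from 31731263 to 43588323 in wildtype libraries. Levels are given as CPM, read counts scaled to a common library size with TMM factors. The host transcript Mir17hg had 0.970 ± 0.34 CPM in knockout hippocampi and 1.09 ± 0.033 CPM in wildtype hippocampi (SD, n = 3 each), with a log2 fold of -0.22 (SE 0.28) and an adjusted p of 0.813 with edgeR's quasi-likelihood test. The 6 hairpins themselves had 0 reads in every library of either genotype, and the labels do not say which part of the host gene was deleted, so these RNA data give no check of the genotype. Per library, the neuron markers summed to between 9294 and 9372 CPM in knockouts and between 8423 and 9183 CPM in wildtypes, and 2 of the 11 blood and lymphocyte markers (Cd3g and Ms4a1) had no reads in any library. In bulk tissue, fewer cells of a type and less RNA per cell cannot be told apart.

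None of the 9 genes differed between knockout and wildtype hippocampi at an adjusted p of 0.05. Their log2 folds, knockout over wildtype, ran from -0.17 for Tnfaip3 to 0.11 for Itch, with 6 above and 3 below 0. The median log2 fold of the 9 was 0.019, against 3.93e-05 over all tested genes, and the median size without sign was 0.057 against 0.085. By edgeR 0 of the 9 passed, where 0% of all tested genes passed, and by DESeq2 0 of the 9 passed, where 0.992% of all tested genes did. The smallest adjusted p among the 9 with edgeR was 0.426, for Stat3, and the smallest of any gene was 0.0624.

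At an unadjusted p under 0.05 with edgeR, 1 of the 9 genes stood out (Stat3), where 10.6% of all tested genes did. The 2 groups of 3 libraries did not overlap for 2 of the 9 genes, where 16.6% of all tested genes were apart in this way. Itch was the 1 gene with every knockout library above every wildtype library, found for 8.29% of tested genes, and Stat3 was the 1 gene with every knockout library below, found for 8.34%. These counts are near what the shares of all genes give for 9 genes.

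The intervals, which are not adjusted for the number of genes, give the sizes of change in RNA level that these data allow. The 95% confidence interval from the edgeR fit ended below a 1.3-fold increase for all 9 genes. For 7 of them it also ended above a decrease of the same size, the exceptions being Bcl2l11 and Tnfaip3, the 2 genes with the fewest reads. The libraries of a genotype scattered about their mean by a median coefficient of variation of 6.44% in knockouts and 4.93% in wildtypes for the 9 genes. Over all tested genes it was 6.47% in knockouts and 6.95% in wildtypes. The labels give no batch, but depth varied within both genotypes, so the log2 difference, knockout minus wildtype, was also taken within the 3 libraries with the most gene reads (knockout replicate 3 and wildtype replicates 1 and 2) and within the other 3. These sets of libraries are not groups of the study, and in each of them 1 genotype has only 1 library. The sign was the same in both sets for Bcl2l11, Stat3, Itch and Rora, and opposite for Phlpp2 (0.12 in the deeper and -0.08 in the shallower set), Cyld (0.13 in the deeper and -0.11 in the shallower), Tnfaip3, Prkaa1 and Mapk14.

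**Figure D2:**
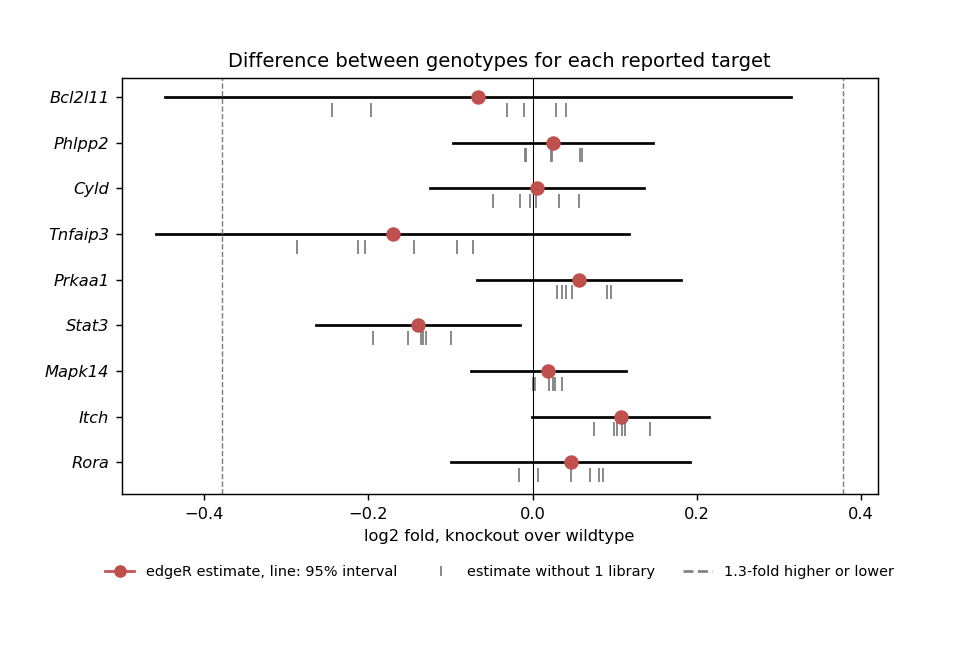
Log2 fold of each of the 9 genes, knockout over wildtype, as the edgeR estimate (circle) with its 95% confidence interval (line), and below it the 6 estimates that each leave out 1 library (ticks). The dashed lines mark 1.3-fold in either direction. No interval reaches beyond the right dashed line, and the intervals of Bcl2l11 and Tnfaip3 cross the left one.

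Bcl2l11 encodes BIM, a BH3-only protein that binds the survival proteins of the BCL2 family and starts apoptosis, and it is the best studied apoptotic target of the cluster. It had 6.41, 5.96 and 8.45 CPM in knockout replicates 1, 2 and 3, against 7.68, 8.34 and 5.90 CPM in wildtype replicates 1, 2 and 3. The groups overlapped over their whole range, with the highest value in knockout replicate 3 and the lowest in wildtype replicate 3. The mean was 6.94 ± 1.33 CPM in knockouts and 7.31 ± 1.26 CPM in wildtypes (SD, n = 3 each). The log2 fold was -0.07 (SE 0.17, adjusted p = 0.918, edgeR), and the interval of the fold ran from 0.733 to 1.24. The 3 libraries with a value above 7 CPM were the 3 with the most gene reads. The log2 difference, knockout minus wildtype, was 0.08 among those 3 deeper libraries and 0.07 among the 3 shallower ones, so its sign was opposite to that of all 6 together. Each of these differences rests on 1 library of 1 genotype and is smaller than the SE. The part of depth in the Bcl2l11 values was not tested.

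Phlpp2 encodes a phosphatase that removes the activating hydrophobic-motif phosphate from AKT and so ends its signal. Its level was 79.98, 84.29 and 87.47 CPM in knockout replicates 1, 2 and 3, against 78.51, 82.29 and 86.83 CPM in wildtype replicates 1, 2 and 3. The libraries of both genotypes covered nearly the same span. With means of 83.9 ± 3.76 CPM in knockouts and 82.5 ± 4.17 CPM in wildtypes (SD, n = 3 each), the log2 fold was 0.02 (SE 0.05, adjusted p = 0.902, edgeR). The interval of the fold ran from 0.935 to 1.11. Its relative Phlpp1, which dephosphorylates the same site, had 132 ± 3.71 CPM in knockouts and 126 ± 2.15 CPM in wildtypes (log2 fold 0.06, SE 0.04, adjusted p = 0.643, edgeR).

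Cyld and Tnfaip3 encode enzymes that take ubiquitin chains off the adaptors that activate NF-kB, CYLD from linear and K63-linked chains and TNFAIP3 (A20) as an inducible brake. Cyld had 163.28, 177.16 and 188.68 CPM in knockout replicates 1, 2 and 3, against 170.88, 173.67 and 182.95 CPM in wildtype replicates 1, 2 and 3. Knockout replicates 1 and 3 held the lowest and the highest value of the 6, so the wildtype range lay inside the knockout range. Means were 176 ± 12.7 CPM in knockouts and 176 ± 6.32 CPM in wildtypes (SD, n = 3 each), with a log2 fold of 0.005 (SE 0.06) and an adjusted p of 0.982 with edgeR. The interval of its fold ran from 0.917 to 1.10.

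Tnfaip3 had 10.51, 10.71 and 9.03 CPM in knockout replicates 1, 2 and 3, against 11.71, 12.75 and 9.35 CPM in wildtype replicates 1, 2 and 3. Wildtype replicates 1 and 2 were the highest, while wildtype replicate 3 lay among the knockouts. Tnfaip3 averaged 10.1 ± 0.919 CPM in knockouts and 11.3 ± 1.74 CPM in wildtypes (SD, n = 3 each), a log2 fold of -0.17 (SE 0.13, adjusted p = 0.665, edgeR) with the interval of the fold from 0.728 to 1.09. The log2 difference was -0.44 among the 3 deeper and 0.18 among the 3 shallower libraries. Microglia are a main source of A20 in brain, and the 10 microglial markers summed to 355 to 376 CPM in knockouts and 370 to 390 CPM in wildtypes, with 3 log2 folds above and 7 below 0. Their part in the Tnfaip3 values was not tested.

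Prkaa1 encodes the α1 catalytic subunit of AMPK, the energy-sensing kinase that opposes growth signalling through mTOR. It had 48.40, 48.30 and 44.61 CPM in knockout replicates 1, 2 and 3, against 43.52, 47.27 and 44.84 CPM in wildtype replicates 1, 2 and 3. Knockout replicates 1 and 2 were above all wildtypes and knockout replicate 3 lay among them. The log2 fold was 0.06 (SE 0.05, adjusted p = 0.740, edgeR), from means of 47.1 ± 2.16 CPM in knockouts and 45.2 ± 1.90 CPM in wildtypes (SD, n = 3 each). The interval of the fold ran from 0.954 to 1.13. Prkaa2, the other catalytic subunit, had 49.9 ± 4.30 CPM in knockouts and 48.1 ± 2.97 CPM in wildtypes (log2 fold 0.05, adjusted p = 0.829, edgeR).

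Stat3 encodes the transcription factor that carries signals of the IL-6 cytokine family from the Janus kinases to the nucleus, and in brain it drives the reactive state of astrocytes. It had 49.27, 47.12 and 53.45 CPM in knockout replicates 1, 2 and 3, against 55.43, 55.59 and 54.35 CPM in wildtype replicates 1, 2 and 3. All 3 knockout libraries were below all 3 wildtype libraries, by the narrow gap between knockout replicate 3 and wildtype replicate 3. Mean levels were 49.9 ± 3.22 CPM in knockouts and 55.1 ± 0.672 CPM in wildtypes (SD, n = 3 each). This gave a log2 fold of -0.14 (SE 0.05), a fold of 0.908 with an interval from 0.833 to 0.989, an unadjusted p of 0.0316 and an adjusted p of 0.426 with edgeR. A smaller p was found for 7.41% of tested genes. Exons of Stat3 overlap those of Stat5a on the other strand over 72 bases. Stat5a held 341 reads in all 6 libraries, and Stat3 held 1241 to 3049 in each. Stat5a was also lower in knockouts, with groups apart (log2 fold -0.36, SE 0.18, adjusted p = 0.526, edgeR). The part of this overlap in the Stat3 values was not tested. The 10 astrocyte markers summed to 6128 to 6646 CPM in knockouts and 5640 to 6324 CPM in wildtypes, with 9 log2 folds above and 1 below 0, and their part in the Stat3 values was not tested.

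Mapk14 encodes p38α, the stress-activated kinase that acts downstream of inflammatory receptors. It had 117.62, 121.20 and 115.11 CPM in knockout replicates 1, 2 and 3, against 117.32, 113.78 and 118.03 CPM in wildtype replicates 1, 2 and 3. Its 6 values were close to each other and the groups overlapped. Averages were 118 ± 3.06 CPM in knockouts and 116 ± 2.27 CPM in wildtypes (SD, n = 3 each), with a log2 fold of 0.02 (SE 0.04, adjusted p = 0.901, edgeR) and an interval of the fold from 0.950 to 1.08. Mapk14 lies on chromosome 17 in a stretch where 11 of the 50 nearest tested genes (22%) had an unadjusted p under 0.05 with edgeR, 4 higher and 7 lower in knockouts, against 10.6% of all tested genes. Mapk14 itself, at an unadjusted p of 0.652, was not among such genes. Around the other 8 genes this share ran from 2% for Itch to 16% for Cyld. Mapk11, which encodes p38β, had 29.9 ± 2.21 CPM in knockouts and 31.7 ± 4.64 CPM in wildtypes (log2 fold -0.08, adjusted p = 0.816, edgeR).

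Itch encodes a HECT-type ubiquitin ligase that works with A20 to end NF-kB signalling and that marks pro-apoptotic and inflammatory factors for degradation. It had 96.03, 98.23 and 96.65 CPM in knockout replicates 1, 2 and 3, against 89.40, 85.97 and 94.77 CPM in wildtype replicates 1, 2 and 3. The knockout libraries were closely grouped and all above the wildtypes, of which replicate 3 came nearest. The mean was 97.0 ± 1.13 CPM in knockouts and 90.0 ± 4.44 CPM in wildtypes (SD, n = 3 each), a log2 fold of 0.11 (SE 0.05). The fold was 1.08 with an upper bound of 1.16, and with an unadjusted p of 0.0503 and an adjusted p of 0.470 (edgeR) the difference did not pass. For 10.7% of tested genes the p was smaller. The summed level of the 10 neuron markers, given above, did not overlap between genotypes either, the knockouts being higher. Of their log2 folds 7 were above and 3 below 0, with 3 markers apart and higher in knockouts and 1, Tubb3, apart and lower. Of all tested genes, 8.29% were apart with knockouts higher and 8.34% with knockouts lower. The part of the neuron markers in the Itch values was not tested.

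Rora encodes RORα, a nuclear receptor that drives clock genes and, in the NF-kB pathway, the inhibitor Nfkbia. It had 52.73, 53.65 and 59.88 CPM in knockout replicates 1, 2 and 3, against 56.65, 53.76 and 50.78 CPM in wildtype replicates 1, 2 and 3. Knockout replicate 3 was the highest of the 6, and the other 2 knockouts lay inside the wildtype range. With 10 seed matches, more than any other of the 9 genes, it had a log2 fold of 0.05 (SE 0.06, adjusted p = 0.829, edgeR). Its means were 55.4 ± 3.89 CPM in knockouts and 53.7 ± 2.94 CPM in wildtypes (SD, n = 3 each), and the interval of the fold ran from 0.934 to 1.14. Its exons overlap a predicted gene on the other strand over 82 bases, which held 9 reads in all 6 libraries. Rorb, its relative, had 17.1 ± 1.19 CPM in knockouts and 18.1 ± 1.20 CPM in wildtypes (log2 fold -0.08, adjusted p = 0.770, edgeR).

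**Figure D3:**
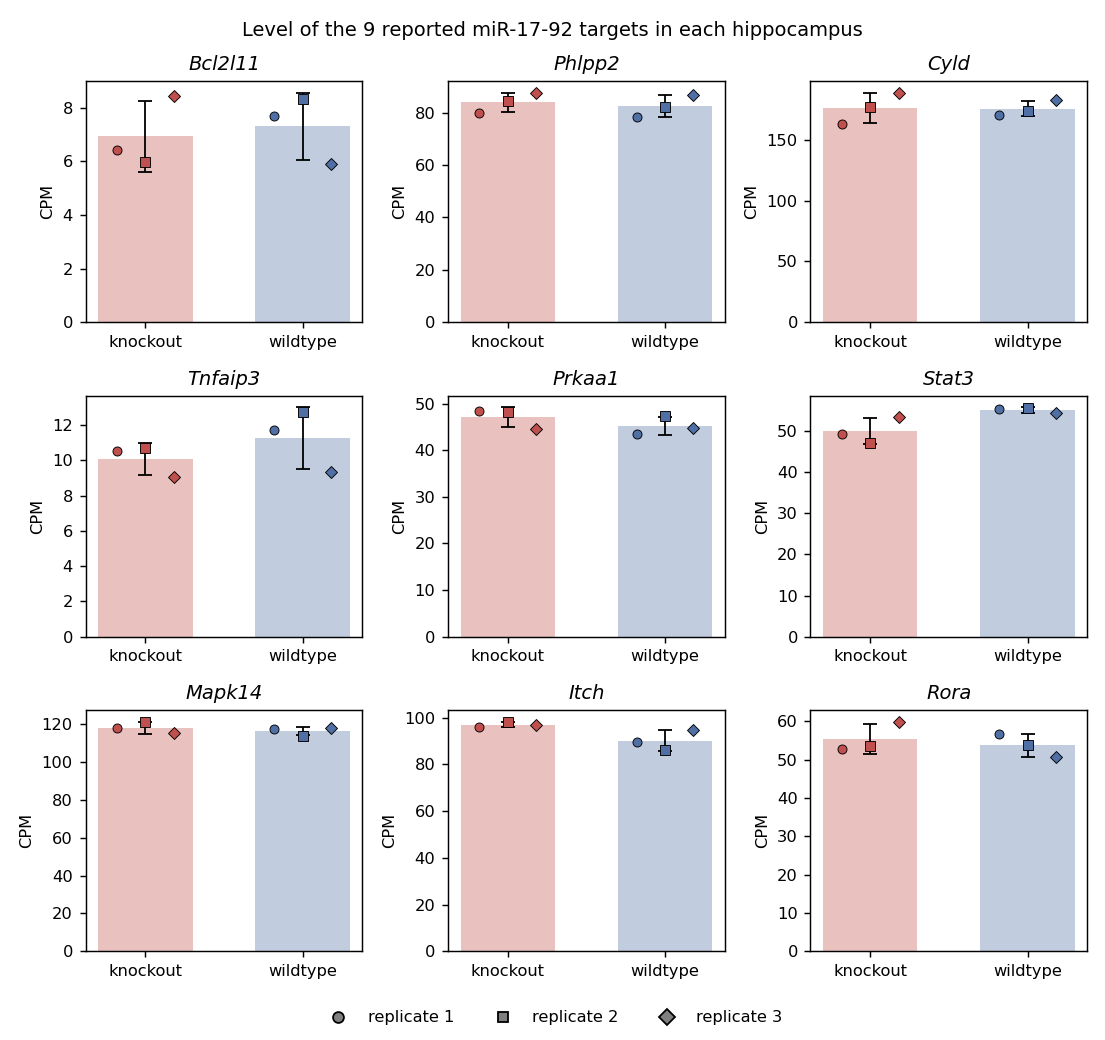
Level of each of the 9 genes in CPM (vertical axes, each from 0) in the 3 knockout (left) and 3 wildtype (right) hippocampi, with points for the replicates, bars for the means and error bars for the SD (n = 3). The points of the genotypes are apart for Stat3, where knockouts are lower, and for Itch, where they are higher, and they overlap for the other 7 genes.

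Levels of different genes were compared per length, as CPM divided by the exon length in kilobases (RPKM). Mapk14 was highest, at 27.0 RPKM in knockouts and 26.6 RPKM in wildtypes. Cyld followed, at 14.02 RPKM in knockouts and 13.98 RPKM in wildtypes. Prkaa1, Itch and Phlpp2 were at 10.1, 9.99 and 9.93 RPKM in knockouts, and at 9.71, 9.27 and 9.77 RPKM in wildtypes. Neighbours in this middle group overlapped in their libraries within each genotype, so their order is not resolved. Stat3 came next, at 5.24 RPKM in knockouts and 5.79 RPKM in wildtypes, and then Rora, at 4.24 RPKM in knockouts and 4.11 RPKM in wildtypes. Tnfaip3 had 1.40 RPKM in knockouts and 1.56 RPKM in wildtypes, and Bcl2l11 was lowest, at 0.864 RPKM in knockouts and 0.910 RPKM in wildtypes. Every other step between neighbours was without overlap in both genotypes. The 2 genes with the widest intervals are thus the 2 least abundant.

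The folds of the 9 genes were set beside those of all tested genes with as many seed families matched. The median log2 fold was -0.005 in the 9674 genes with no family, 0.013 in the 3533 with 1 family, 0.013 in the 1054 with 2, 0.004 in the 214 with 3 and -0.002 in the 41 with 4. The median was higher in the classes with 1 and 2 families than in the class with none, and lower again with 3 and 4, and these differences were not tested. Rora, 1 of the 41 genes with all 4 families, had a log2 fold of 0.05, between the quartiles of that class. Bcl2l11, in the class with 3, was at -0.07, just below the lower quartile of its own, -0.06.

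**Figure D4:**
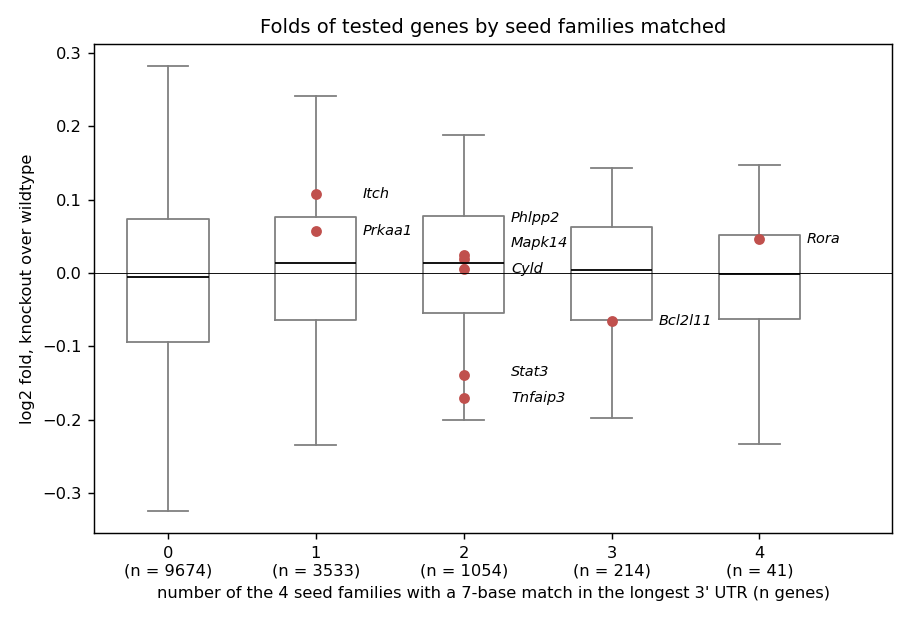
Log2 fold, knockout over wildtype, of the 14516 tested genes with a 3′ UTR (vertical axis) by the number of the 4 seed families matched (horizontal axis, with the number of genes), as boxes of the median and quartiles with whiskers to the 5th and 95th percentile; the 9 genes are the red points. The boxes lie at the same height around 0, and each red point lies between the whiskers of its class.

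Pathway genes around the 9 were followed through 13 lists of partners, regulators and targets. These were drawn up by known role, with earlier results of these data known. The lists hold 165 genes, of which 157 were tested and the other 8 had too few reads. None passed the adjusted threshold with edgeR, and at an unadjusted p under 0.05 there were 13, which is 8.28% against 10.6% of all tested genes, 5 of them higher and 8 lower in knockouts. The groups were apart for 18.5% of them, against 16.6% of all. With DESeq2 2 of them passed, Dusp1 and Junb, both lower in knockouts. The median log2 fold of the 157 was 0.013.

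In the PI3K-AKT pathway, the 21 kinases and partners tested had a median log2 fold of -0.019. At an unadjusted p under 0.05 with edgeR, 829 of all 16432 tested genes were higher in knockouts and 917 lower, 10.6% together. This share is also the one to set beside the lists that follow. Of the 21 genes, 1 was higher and 4 were lower. The higher gene was Foxo1, a transcription factor that AKT keeps out of the nucleus, with 65.64, 62.69 and 70.24 CPM in knockout replicates 1, 2 and 3 against 59.54, 58.17 and 60.32 CPM in wildtype replicates 1, 2 and 3. Its log2 fold was 0.16 (SE 0.05, adjusted p = 0.358, edgeR). Of the 3 regulatory subunits of PI3K listed, Pik3r3 and Pik3r2 were among the 4 lower genes, and Pik3r1 had a log2 fold of 0.03 with overlapping groups. Pik3r3 had a mean of 64.4 ± 2.32 CPM in knockouts and 72.1 ± 4.57 CPM in wildtypes (log2 fold -0.16, adjusted p = 0.383, edgeR), and Pik3r2 had 125 ± 8.12 CPM in knockouts and 139 ± 7.18 CPM in wildtypes (log2 fold -0.16, adjusted p = 0.418, edgeR). The other 2 were Akt1 and Rptor, named after their values were seen, both with a log2 fold of -0.10. Among the 21 kinases and partners, the groups were apart for 2 with knockouts higher and for 7 with knockouts lower. The 11 brakes of the pathway tested were mostly phosphatases of the lipid signal or of AKT. Their median was 0.059, against 3.93e-05 over all tested genes, and 10 of their log2 folds were above 0. At an unadjusted p under 0.05 there was 1, higher in knockouts, and the groups were apart for 3, all higher. Of all tested genes, 8.29% were apart with knockouts higher and 8.34% with knockouts lower. The regulatory phosphatase subunit Ppp2r5e was at 0.10 and the lipid phosphatase Inpp5d at -0.15, with adjusted p of 0.489 and 0.597 (edgeR). The 10 target genes of FOXO factors tested had a median of 0.029 and none at an unadjusted p under 0.05, and Foxo3 itself was at 0.07 (adjusted p = 0.666, edgeR).

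Among the 21 NF-kB subunits, inhibitors and kinases tested the median log2 fold was 0.013, and only Tab1 was under an unadjusted p of 0.05. Tab1, an activating partner of the kinase TAK1, had 20.5 ± 1.03 CPM in knockouts and 23.5 ± 1.88 CPM in wildtypes (log2 fold -0.20, adjusted p = 0.410, edgeR). Nfkbia, the inhibitor IκBα and a target of NF-kB, had 17.6 ± 1.5 CPM in knockouts and 15.9 ± 0.409 CPM in wildtypes (log2 fold 0.15, adjusted p = 0.544, edgeR). The 10 partners and relatives of A20 and CYLD had a median of -0.047. The smallest p among them was that of Spata2, which links CYLD to the linear ubiquitin ligase, with 73.16, 73.01 and 73.34 CPM in knockout replicates 1, 2 and 3, against 80.70, 81.19 and 78.92 CPM in wildtype replicates 1, 2 and 3. The groups were apart and both narrow. The log2 fold was -0.13 (SE 0.04) with an adjusted p of 0.331 with edgeR. The 7 NF-kB target genes tested had a median of 0.072 and none under an unadjusted p of 0.05. Birc3, Nfkb2, Nfkbia and Relb stand both among them and in the list of subunits, inhibitors and kinases.

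Among the 21 genes of the BCL2 family and caspase pathway tested the median log2 fold was -0.006, and 1 was under an unadjusted p of 0.05. This was Bcl2, the survival protein that BIM binds, with 17.4 ± 1.63 CPM in knockouts and 14.9 ± 1.03 CPM in wildtypes (SD, n = 3 each). Its log2 fold was 0.23 (SE 0.09, adjusted p = 0.429, edgeR) and the groups were apart. Of 2 other survival members, Bcl2l2 was at 0.09 and Mcl1 at -0.01, with adjusted p of 0.521 and 0.981 (edgeR).

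The 9 AMPK subunits and upstream kinases tested had a median log2 fold of -0.064 with none under an unadjusted p of 0.05, and the upstream kinase Stk11 (LKB1) was at -0.07. The 14 JAK-STAT partners had a median of 0.015. Jak2, a kinase that phosphorylates STAT3, had 53.8 ± 3.21 CPM in knockouts and 48.2 ± 1.62 CPM in wildtypes, with a log2 fold of 0.16 (SE 0.06, adjusted p = 0.387, edgeR), and was the only list member under an unadjusted p of 0.05. Socs3, the feedback inhibitor that STAT3 induces, had 1.29 ± 0.336 CPM in knockouts and 0.948 ± 0.0545 CPM in wildtypes, with an adjusted p of 0.597 (edgeR). Of the 8 STAT3 target genes tested the median was 0.062. At an unadjusted p under 0.05, where 10.6% of all tested genes were, 1 was higher and 1 lower. The higher was Gfap, the astrocyte filament, at 345 ± 52.6 CPM in knockouts and 286 ± 33.5 CPM in wildtypes (log2 fold 0.27, adjusted p = 0.452, edgeR). The lower was Junb, an immediate early gene, at 40.6 ± 3.64 CPM in knockouts and 61.6 ± 9.79 CPM in wildtypes. Socs3 and Osmr stand both among the JAK-STAT partners and among the STAT3 target genes.

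Junb had the smallest p of all the listed pathway genes, with a log2 fold of -0.61 (SE 0.11), an unadjusted p of 0.000491 and an adjusted p of 0.192 with edgeR. The adjusted p was 1.89e-05 with DESeq2 and 0.00874 with edgeR when no filter beyond 1 read was applied. In the least favourable of the alternatives run it was 0.588. With 1 library left out the log2 fold of Junb ran from -0.73 to -0.52. Among the 14 p38 kinases, activators and targets, with a median of -0.050, Dusp1 was similar. Dusp1 encodes a phosphatase that is induced with the immediate early genes and switches p38 off. It had 18.85, 18.72 and 18.28 CPM in knockout replicates 1, 2 and 3, against 36.74, 29.81 and 21.06 CPM in wildtype replicates 1, 2 and 3. The knockouts were nearly alike while the wildtypes spread widely, all above the knockouts. The log2 fold was -0.65 (SE 0.17), with an adjusted p of 0.291 with edgeR and 0.00382 with DESeq2. In the least favourable of the alternatives run the adjusted p was 0.779. With 1 library left out the log2 fold of Dusp1 ran from -0.84 to -0.46. Tab1, named above, was the other p38 list member under an unadjusted p of 0.05.

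The 10 relatives and adaptors of ITCH tested had a median log2 fold of 0.071, with 8 above 0 and none under an unadjusted p of 0.05. Ndfip1, the adaptor that activates ITCH, had 255 ± 15.7 CPM in knockouts and 235 ± 10.4 CPM in wildtypes (log2 fold 0.12, SE 0.05, adjusted p = 0.483, edgeR). Nedd4, the founding ligase of the family, had 663 ± 9.32 CPM in knockouts and 642 ± 24.3 CPM in wildtypes (log2 fold 0.05, adjusted p = 0.687, edgeR). The 8 ROR receptors and partners had a median of 0.011 and none under an unadjusted p of 0.05.

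**Figure D5:**
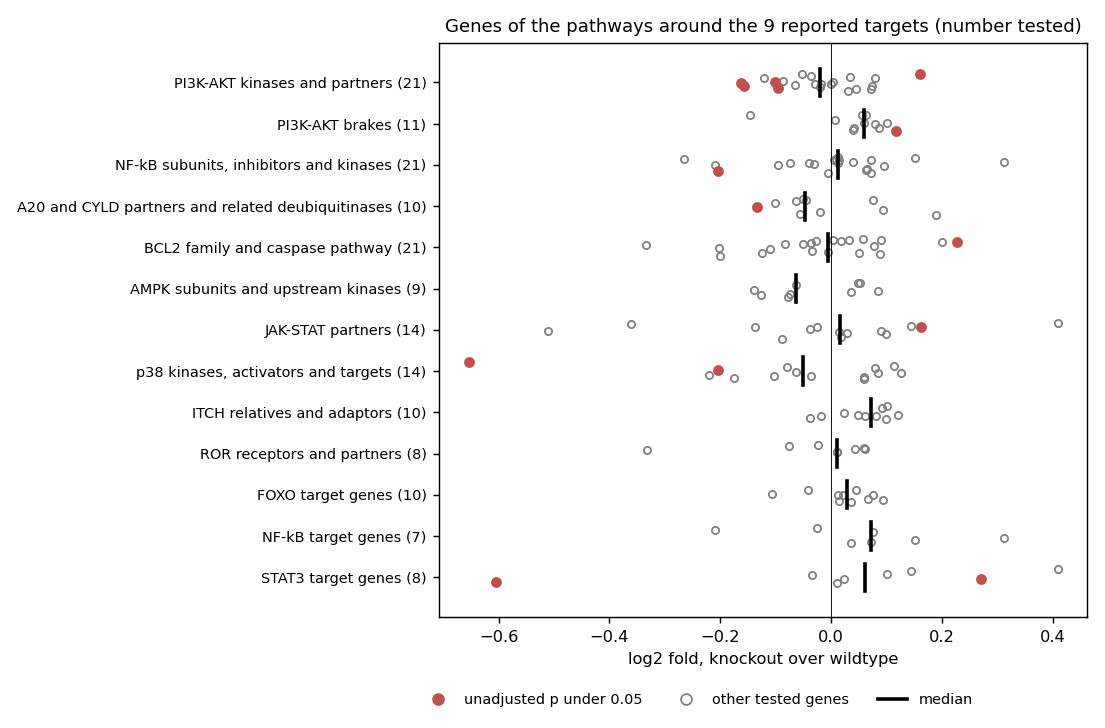
Log2 fold, knockout over wildtype (horizontal axis), of each tested gene of the 13 pathway lists (rows, with the number tested); filled points have an unadjusted p under 0.05 with edgeR, and black bars are list medians. Medians lie between -0.064 and 0.072, and the points farthest to the left, in the p38 and STAT3 target rows, are Dusp1 and Junb.

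Stat3 had the smallest p of the 9 genes. Across the 6 libraries its log2 level was most alike to those of Eno1, Kcnh1 and Clasp1 among 9887 genes of at least 10 CPM, with Pearson correlations of 0.991, 0.986 and 0.986. The closest to Bcl2l11 were Alg5, Rhot2 and Col23a1, with 0.982, 0.981 and 0.976. These likenesses are descriptions over 6 libraries that share depth and genotype. They are no higher than usual, since the best partner of a gene had a median correlation of 0.991 over the genes compared.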

How the data were processed

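RNA was sequenced from 6 hippocampi, 3 miR-17-92 knockout and 3 wildtype. The authors' deposited files, 1 for each mouse, hold whole counts of reads per gene without normalization. The submitters' processing notes name FastQC 0.10.1, STAR 2.3.0e, SAMtools, HTSeq, DESeq2 and genome build mm9. The role of the tools and the strand setting: neither is given in the sources used here. Reads of overlapping genes on opposite strands therefore cannot be told apart. In each file 5 rows name no gene; they held 38.0% to 40.3% of the total and were left out.

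Counts were tested with edgeR 4.0.16 in R 4.3.3 (quasi-likelihood, genotype alone, filterByExpr, TMM, two-sided, Benjamini-Hochberg over 16432 genes at 0.05). Alternatives used DESeq2 1.42.0 and limma 3.58.1, other scalings, filters and covariates, and each library left out. Each mouse is a separate animal. Scripts were tested on simulated data. Symbols (32897 of the 37620 identifiers matched), exon lengths and UTRs were taken from the GENCODE M21 annotation of GRCm38, another build than that of the counts, so no gene coordinates are given; the longest 3′ UTR of protein-coding transcripts was searched for the 7 bases that pair with microRNA bases 2 to 8. For correlations 0.5 was added to CPM.

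The 9 genes, the 13 pathway lists and the 10 cell type lists were chosen with earlier results of these data known. Named were the 9 genes, Mir17hg, 11 relatives or partners of them, and up to 3 genes per list with the smallest p; 1 gene this rule takes is not reported here.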

Additional observations from a re-analysis of the deposited data

How the results depend on the processing

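The count of the 9 genes passing the adjusted threshold was 0 under every alternative run (DESeq2 size factors, upper quartile factors, 2 other filters, DESeq2, limma-voom, the robust edgeR fit, a replicate block, the depth set as a covariate, offsets for GC content and length, and each library left out). The smallest adjusted p of any of the 9 was 0.353, for Itch. Over all genes edgeR called 0, against 62 with no filter beyond 1 read (36 higher, 26 lower in knockouts), 163 with DESeq2 (70 higher, 93 lower), 15 with the robust fit (13 higher, 2 lower), and 0 to 17 with 1 library left out, 17 without knockout replicate 3 and 16 without wildtype replicate 2. Over the genes of the pathway and cell type lists the count was 0, against 6 with no filter, 9 with DESeq2, 2 with the robust fit, and 0 to 3 with 1 library left out. The cause was not tested. Same-numbered libraries deviated from their group means with correlations of -0.10, -0.02 and -0.15. These values show no pairing by number, but taken over all tested genes they cannot exclude one that touches some genes. The replicate block called 0 genes of all and 0 of the 9.

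The median log2 fold of the 9 genes ran from -0.016 (without knockout replicate 3) to 0.035 with 1 library left out. Signs that turned were all of folds that had not passed. With the depth set as a covariate Bcl2l11 was at 0.0732 and Mcl1 at 0.0166. With the offsets Cyld was at -0.0150, Prkaa1 at -0.00477 and Stk11 at 0.0161. With 1 library left out Bcl2l11 ran from -0.245 to 0.0406, Phlpp2 from -0.00978 to 0.0601, Cyld from -0.0478 to 0.0568 and Rora from -0.0165 to 0.0862. Without a change of sign, Tnfaip3 ran from -0.29 (without wildtype replicate 3, adjusted p = 0.404, edgeR) to -0.07 (without wildtype replicate 2), Prkaa1 from 0.03 to 0.10 and Mapk14 from 0.001 to 0.04. Mir17hg ran from -0.486 to 0.0412 (without knockout replicate 3), Prkaa2 from -0.0145 (without knockout replicate 2) to 0.10, Mapk11 from -0.161 to 0.0401 (without wildtype replicate 3) and Mcl1 from -0.0632 to 0.0577 (without knockout replicate 1). Stat3 (-0.19 to -0.10) and Itch (0.07 to 0.14) kept their sign, which the separation of their groups fixes. At least 1 seed match was found in 9 of the 9 genes with 7 bases, 7 with 8 bases, 9 with 6 bases and 9 with any annotated 3′ UTR.

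Few reads limit Bcl2l11 (157 to 482 per library) and Tnfaip3 (282 to 558). Protein was not measured, and whole hippocampus gives no value for a single cell type.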

Other observations

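Beyond the pathways of the 9 genes, the summed level of some marker lists did not overlap between genotypes, although no marker passed the adjusted threshold in the main edgeR fit. This held for neurons, meninges and choroid plexus, but not for astrocytes, microglia or endothelium. With DESeq2, 3 meningeal, 2 astrocyte, 1 microglial and 1 endothelial marker passed, all higher in knockouts, where 0.992% of all tested genes passed. The microglial and endothelial lists as a whole leaned lower, each with 3 log2 folds above and 7 below 0. Groups were apart for 1 microglial marker higher and 2 lower, and for 1 endothelial marker higher and 4 lower. Of all tested genes, 8.29% were apart with knockouts higher and 8.34% with knockouts lower. All 10 meningeal markers tested had log2 folds above 0, with a median of 0.43, and their summed level was 386 to 476 CPM in knockouts and 275 to 318 CPM in wildtypes. Among them Igf2, a growth factor made in the meninges, had 57.0 ± 11.9 CPM in knockouts and 33.2 ± 4.81 CPM in wildtypes (SD, n = 3 each; log2 fold 0.77, adjusted p = 0.227, edgeR). The astrocyte gap junction gene Gjb6 had 58.70, 54.56 and 61.67 CPM in knockout replicates 1, 2 and 3, against 36.59, 40.53 and 40.39 CPM in wildtype replicates 1, 2 and 3, with a log2 fold of 0.58 and an adjusted p of 0.0624 with edgeR. The microglial gene Aif1 had 6.60 ± 0.559 CPM in knockouts and 3.56 ± 0.339 CPM in wildtypes (log2 fold 0.88, adjusted p = 0.0720, edgeR), while Trem2, also microglial, had 7.25 ± 0.230 CPM in knockouts and 9.37 ± 0.90 CPM in wildtypes (log2 fold -0.37, adjusted p = 0.317, edgeR).

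Oligodendrocyte markers summed to 3345 to 3588 CPM in knockouts and 3468 to 4300 CPM in wildtypes, with 2 log2 folds above and 8 below 0. Oligodendrocyte precursor markers came to 290 to 302 CPM in knockouts and 299 to 317 CPM in wildtypes, and endothelial markers to 197 to 208 CPM in knockouts and 203 to 224 CPM in wildtypes. Choroid plexus markers came to 157 to 162 CPM in knockouts and 164 to 191 CPM in wildtypes, with 3 log2 folds above and 3 below 0 and no single marker apart. Most of this sum was Enpp2, at 122 to 128 CPM in knockouts and 123 to 160 CPM in wildtypes. Kl was higher in knockouts (log2 fold 0.29). Ttr had 1.56 to 5.73 CPM in knockouts, and 39.0, 4.87 and 2.48 CPM in wildtype replicates 1, 2 and 3. Blood and lymphocyte markers came to 13.4 to 16.95 CPM in knockouts and 14.6 to 25.4 CPM in wildtypes, and thalamus markers to 60.5 to 80.8 CPM in knockouts and 63.2 to 75.2 CPM in wildtypes. What sets these levels was not tested.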
